A study of Mus musculus with 2 samples.

Results

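The cytosolic ribosomal protein genes encode the protein parts of the ribosomes that translate nuclear mRNAs. They were taken as the protein-coding genes of the RefSeq table (GRCm38.p6) whose symbol starts with Rpl or Rps and a digit, together with Rplp0, Rplp1, Rplp2 and Rpsa. Genes of the Rps6k kinase family, Rps19bp1 and symbols with ps after the number were left out. The rule gave 88 of 21887 protein-coding genes, on 19 chromosomes. By symbol, 10 are paralogues (ending in l, l1, al or rt). The others were counted by symbol as 43 large subunit, 32 small subunit and 3 stalk genes. The 32 include Rps23rg1, a retrogene of Rps23 that these endings do not catch.

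Chromatin accessibility was measured in 1 group of 2 libraries by ATAC-seq, an assay that marks open DNA by where Tn5 transposase can cut and tag it. Both were made from mouse cells labelled GSC, of genotype Stag3 KO. The cells were sorted as viable and reporter-positive from the Acrosin-EGFP; beta-Actin-EGFP (AAG) line. Stag3 encodes a germline form of a cohesin subunit, and cohesin rings hold chromatids together and fold chromosomes. The study set these libraries against wild-type cells that are not analysed here, so every value describes Stag3 KO cells and none is an effect of the knockout. Whether separate cultures or clones stand behind the libraries is not labelled, so their spread may be technical. Age was not labelled.

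Ribosomal proteins coat and shape ribosomal RNA, and each ribosome holds most of them in equal number, so their genes are transcribed together at high levels in dividing cells. Many of their mRNAs start with a C followed by a run of pyrimidines, the terminal oligopyrimidine tract, through which growth signals set translation. Mammalian ribosomal protein genes are short, many carry snoRNA genes in their introns, and the genome holds a large number of processed copies of them. In male meiosis the X chromosome is silenced, and autosomal copies of X-linked ribosomal protein genes are known to act in its place in the mouse.

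The following promoters show the pyrimidine run at the annotated start, in the 6 members with the strongest accessible start regions among those that hold such a run. Of the 13 members ranked at or above the last of these by start region, 7 had no such run. Each window holds 60 bases before the start and 20 bases from it, read on the gene's strand from RefSeq (GRCm38.p6). Capitals mark the C and the pyrimidines that follow it.
Rps26, chr10:128626487-128626566, minus strand: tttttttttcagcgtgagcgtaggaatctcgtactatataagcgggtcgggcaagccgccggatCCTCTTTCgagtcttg
Rpl34, chr3:130730379-130730458, minus strand: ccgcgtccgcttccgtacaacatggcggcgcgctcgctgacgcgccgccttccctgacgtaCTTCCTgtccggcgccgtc
Rpl31, chr1:39367791-39367870, plus strand: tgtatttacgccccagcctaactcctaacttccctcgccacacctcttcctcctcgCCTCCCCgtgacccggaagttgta
Rpl22l1, chr3:28805448-28805527, plus strand: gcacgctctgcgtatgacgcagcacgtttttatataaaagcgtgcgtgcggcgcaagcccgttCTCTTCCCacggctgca
Rps9, chr7:3703981-3704060, plus strand: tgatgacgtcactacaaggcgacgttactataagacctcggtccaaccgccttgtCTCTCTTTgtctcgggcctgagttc
Rpl14, chr9:120571457-120571536, plus strand: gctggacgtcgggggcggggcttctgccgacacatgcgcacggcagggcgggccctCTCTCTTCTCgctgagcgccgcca
These 5 promoters of members with no accessible region at the start in both libraries hold the same kind of run, in capitals. They are shown as a contrast to the accessible starts, and Rps27rt, the remaining such member, is printed with its parent further on.
Rps21, chr2:180257319-180257398, plus strand: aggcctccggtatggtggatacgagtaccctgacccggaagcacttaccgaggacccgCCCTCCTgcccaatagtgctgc
Rpl13a, chr7:45128726-45128805, minus strand: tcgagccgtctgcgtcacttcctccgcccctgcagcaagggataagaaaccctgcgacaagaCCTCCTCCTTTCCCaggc
Rpl15, chr14:18270967-18271046, minus strand: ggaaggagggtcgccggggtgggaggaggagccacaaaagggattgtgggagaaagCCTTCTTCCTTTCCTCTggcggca
Rps23rg1, chr8:3567938-3568017, plus strand: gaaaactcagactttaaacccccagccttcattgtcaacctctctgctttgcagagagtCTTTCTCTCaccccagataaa
Rpl32l, chr10:20208379-20208458, plus strand: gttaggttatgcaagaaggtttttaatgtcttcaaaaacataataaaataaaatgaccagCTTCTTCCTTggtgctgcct

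Peaks of both libraries that overlapped by at least 1 bp were joined into shared regions, and a region belonged to a gene when any part lay within 1000 bp of it. A shared region was found at 83 of 88 ribosomal protein genes (94.3%, 95% Wilson interval 87.4 to 97.5), against 75.7% of all protein-coding genes. This held for 42 of 43 large subunit genes, 31 of 32 small subunit genes (Rps23rg1 included), 3 of 3 stalk genes and 7 of 10 paralogues. The members held 121 regions, with 1 region at 51 members, 2 at 27, 3 at 4 and 4 at Rpl19. That is a mean of 1.38 regions a member, against 2.42 over all protein-coding genes, and the median gene length was 3179 bp for members and 17169 bp for all genes. Neighbouring peaks of replicate 1 that shared a partner in replicate 2 were counted separately. Regions were not placed in exons, introns or UTRs, since only gene ends and starts were used here.

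The RefSeq promoter table lists a start for 68 members. A shared region lay within 1000 bp of the start in 61 of these 68 (89.7%, interval 80.2 to 94.9), against 65.9% of the 17492 protein-coding genes with a listed start. The start region lay above the median fold of all peaks in both libraries (8.78 and 8.73) for 56 members (82.4%), against 52.9% of all genes with a listed start. That share was 84.1% for mitochondrial ribosomal protein genes and 84.6% for ribosome biogenesis genes. It was 100% for translation factor and other oligopyrimidine genes, so it was not particular to members. The intervals cover counting error only, and no test was made of the list, since its members were chosen with earlier results of these data known. All 20 members with no listed start had a shared region, against 75.7% of all protein-coding genes, with or without a listed start. Its strongest summit lay within 1000 bp of a gene end for 19 of these 20 and within 200 bp for 12. These shares were not computed over other genes without a listed start. With a median member length of 3179 bp, the window itself places most regions near a gene end, so these counts do not show promoter accessibility.

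Start regions of members were common but not unusually strong. Fold is the number of tags at the summit over the local background, as the authors' peak caller gave it. Its median over 61 member start regions was 16.8 in replicate 1 and 17.8 in replicate 2, against 15.4 and 16.4 over 11521 start regions of all protein-coding genes. The middle 50% of members lay between 11.96 and 20.6 in replicate 1 and between 14.0 and 23.5 in replicate 2. For all genes those bounds were 10.4 and 21.1 in replicate 1 and 10.9 and 22.7 in replicate 2. The highest member start region reached 27.5-fold in replicate 1 and 30.9-fold in replicate 2, against 40.0 and 42.4 among all genes. At the low end, 5% of members lay at or under 6.57 and 8.15, against 5.67 and 5.76 for all genes. Member starts were thus higher at the low end of the range, while a highest value over 61 genes cannot be set against one over 11521. When each gene's strongest region was taken instead, wherever it lay, the members' medians were 16.8 and 17.7, below the 18.4 and 19.1 of all genes. Long genes have more regions to choose from, and the part of gene length in that order was not tested.

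**Figure D1:**
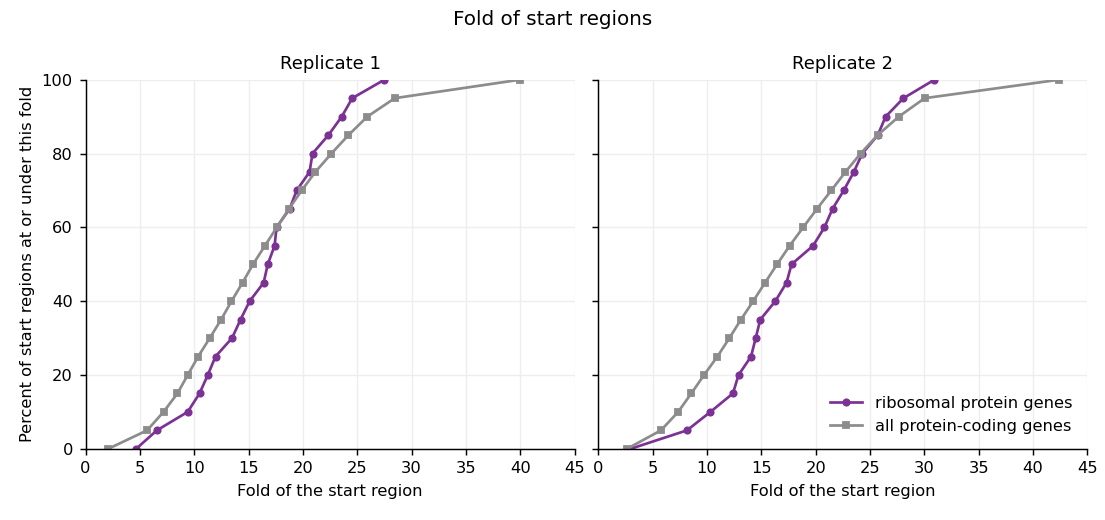
Fold of start regions (horizontal axis, fold over local background) against the percent of start regions at or under that fold (vertical axis), for ribosomal protein genes and all protein-coding genes, in replicate 1 (left) and replicate 2 (right). The member curve starts further right at the low end and ends at 27.5 and 30.9, before the curve of all genes, which runs to 40.0 and 42.4.

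Among large subunit genes, Rpl6, Rpl23 and Rpl34 were among those with the strongest regions. Rpl6 had 24.1-fold enrichment in replicate 1 and 30.9-fold in replicate 2 at 32 bp upstream of its start, from 172 and 221 tags. Rpl34 reached 24.9-fold and 28.0-fold at 13.5 bp upstream. The strongest region within 1000 bp of Rpl23, at 25.7-fold and 27.1-fold, lay beyond its 3′ end, 5803 bp downstream of the start, while the start itself had 16-fold and 20.8-fold. Rpl6 differed most between the libraries of all members in fold, and Rpl34 less, but both stayed above the third quartile of members in each library.

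Small subunit genes had a median strongest-region fold of 14.3 and 16.1, against 16.5 and 17.7 for large subunit genes. Rps26, Rps3 and Rps27a led them. Rps26, whose product lies near the mRNA exit channel, had 27.5-fold and 28.1-fold enrichment from 334 and 365 tags, in a region on chromosome 10 (128626662 to 128627016) that began 156 bp upstream of the start. Its summit was 336.5 bp upstream, further than that of most members, and a weak peak of 3.12-fold at the start itself was called in replicate 1 only. Rps3, whose product lies at the mRNA entry channel, had 24.3-fold and 29.5-fold enrichment 59.5 bp upstream of its start. It held 2 further regions near its 3′ end, at 17.2-fold and 15.2-fold and at 3.86-fold and 3.81-fold. Rps27a, which is made as a fusion with ubiquitin, had 24.3-fold and 29.0-fold enrichment 169 bp from a gene end. Rpsa, known also as the laminin receptor, had 17.5-fold and 21.7-fold, near the middle of the range.

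The stalk recruits elongation factors to the ribosome through Rplp0, Rplp1 and Rplp2. Rplp0, its base, had 18.8-fold and 24.9-fold enrichment from 307 and 419 tags. Rplp1 had 20.6-fold and 21.3-fold, and Rplp2 had 16.7-fold and 17.3-fold. The summit of Rplp2 lay 357 bp upstream of its start and that of Rplp0 107.5 bp upstream.

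**Figure D2:**
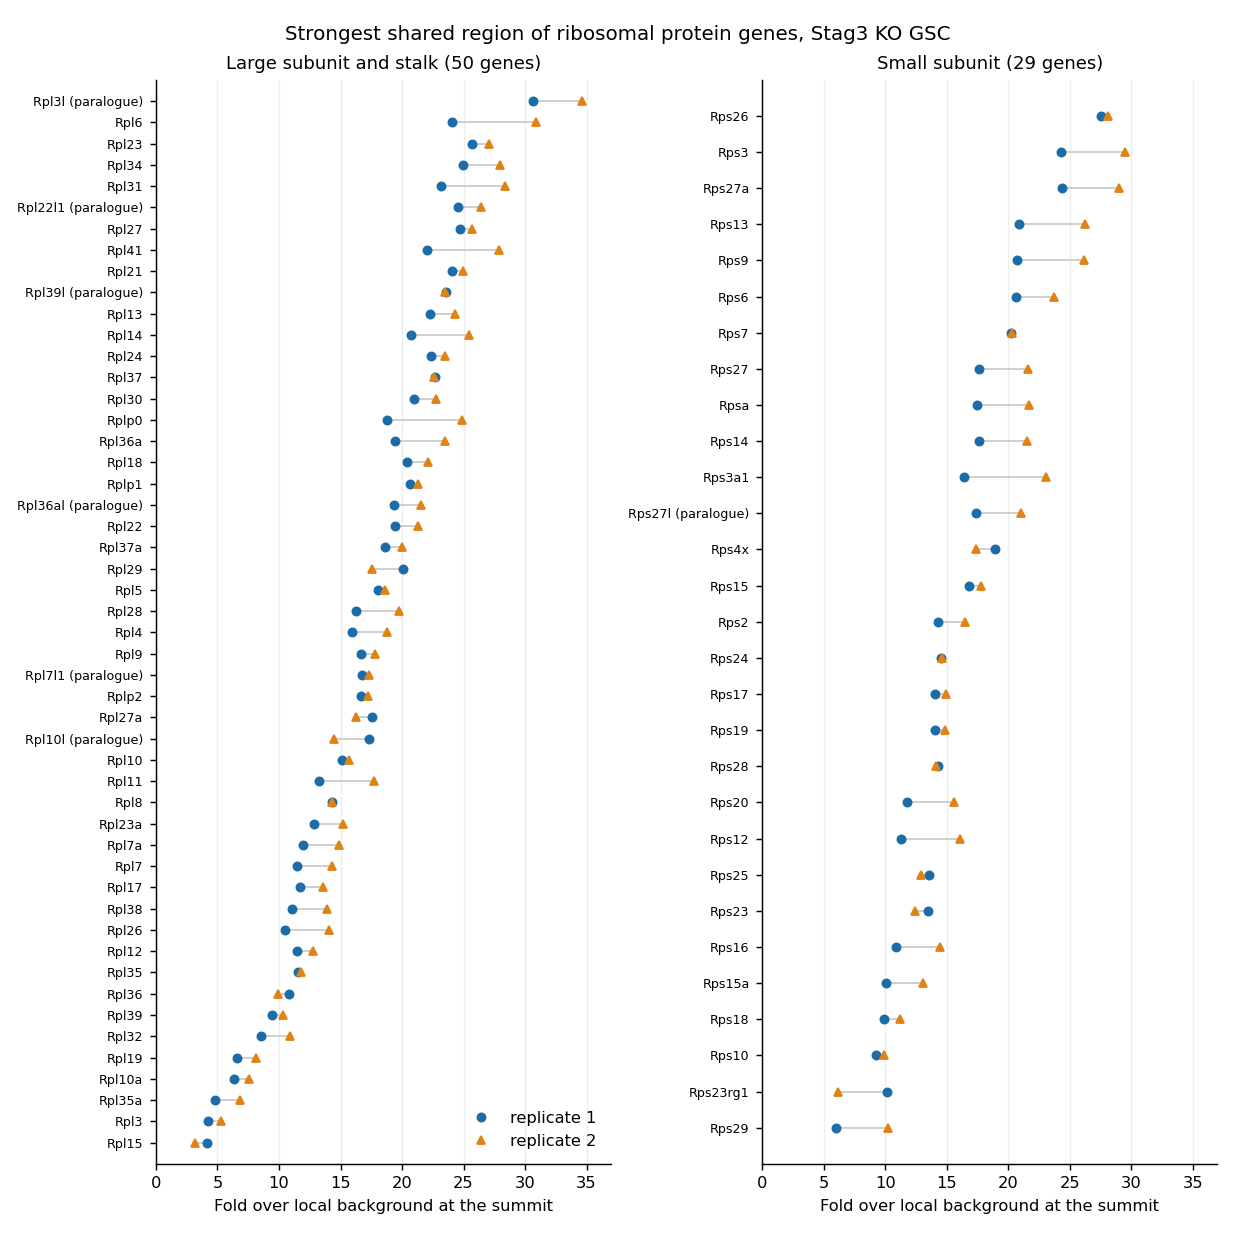
Fold over local background at the strongest shared region (horizontal axis) of ribosomal protein genes with one, ordered by mean percentile, for large subunit and stalk genes (left) and small subunit genes (right). Circles are replicate 1 and triangles replicate 2, joined by a grey line, and the values drawn run from 4.18 to 30.7 in replicate 1 and from 3.18 to 34.6 in replicate 2.

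Rpl15, Rpl3, Rpl35a and Rpl10a were among the members with the lowest regions. Rpl15 had 4.18-fold and 3.18-fold in a region 865 bp from its 3′ end, the largest gap of any member inside the 1000 bp window. Peaks of 6.19-fold, 916 bp upstream of its start, and of 5.64-fold, 1159 bp downstream of it, were called in replicate 1 only. A peak of 6.6-fold beyond its 3′ end was called in replicate 2 only. Rpl3, which reaches towards the peptidyl transferase centre, had 4.22-fold and 5.30-fold in a region 497 bp beyond its lower gene end. A further peak of 7.67-fold lay 767 bp inside its upper gene end in replicate 1 only. Rpl35a had 4.80-fold and 6.83-fold at 4 bp upstream of its start, and Rpl10a 6.37-fold and 7.60-fold at 10.5 bp upstream. So Rpl35a and Rpl10a were weak but centred on their starts, while the regions of Rpl15 and Rpl3 lay 865 and 497 bp beyond a gene end.

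The window left 5 members with no shared region: Rps21, Rpl13a, Rpl32l, Rpl37rt and Rps27rt. Rps21, a small subunit gene, lay 5742 bp from the nearest shared region. Rpl13a, on chromosome 7 at 45125563 to 45128745, lay 3766 bp from the nearest one. No peak was called within 1000 bp of Rps21 or Rpl13a in either library. Rpl32l fell just outside the window, 1174 bp from a region of 6.38-fold and 6.29-fold. Rps27rt, a retrocopy, lay 3024 bp from the nearest one. Rpl37rt had a peak of 5.96-fold from 18 tags in replicate 1 only, 2454 bp downstream of its start. Rps23rg1, a retrogene of Rps23, had a region of 10.1-fold and 6.18-fold, but 6241 bp downstream of its start. The RefSeq table holds 324 pseudogenes with ribosomal protein names. How reads with several matches were treated is not given in the sources used here, and the part of such copies in the missing regions was not tested.

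In 19 members a peak was called in 1 library with no overlapping peak in the other, 16 peaks in replicate 1 and 11 in replicate 2. Their median fold was 4.21 and their range 2.61 to 10.5. The highest belonged to Rps23rg1 in replicate 2, and apart from Rpl37rt each of these members also had a shared region. Over the full lists, 83732 of 107331 replicate 1 peaks overlapped a replicate 2 peak. Of 98986 replicate 2 peaks, 81846 were joined into a shared region. The share of all genes with a peak in 1 library only was not computed, so the 19 members were not set against other genes.

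The summits of members clustered just upstream of the start. The median position was 49 bp upstream, with the middle 50% between 99.5 and 21.5 bp upstream. Over all genes the median was 48.5 bp upstream, but the middle 50% ran from 123.5 bp upstream to 20 bp downstream. The summit lay upstream in 56 of 61 members (91.8%), against 70.5% of all start regions. It fell within 150 bp upstream in 49 of 61 members (80.3%), against 49.8%. Members and all genes had the same centre, and members a narrower spread than all genes. For mitochondrial ribosomal protein genes the share within 150 bp upstream was 67.7% and the share upstream 83.1%. Their middle 50% ran from -87 to -14 bp (negative is upstream), about as narrow as that of members. For ribosome biogenesis genes it ran from -70 to -28 bp, over 13 start regions, with 69.2% within 150 bp upstream. The narrow spread was thus not particular to members. Among the exceptions were Rps26, Rps4x, Rps19 and Rplp2, with summits between 301.5 and 357 bp upstream, and Rpl4, at 502.5 bp upstream with a weaker region of 6.0-fold and 7.68-fold 65 bp downstream. Rpl27, Rpl22 and Rpl24 peaked 114.5, 80 and 58 bp downstream.

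**Figure D3:**
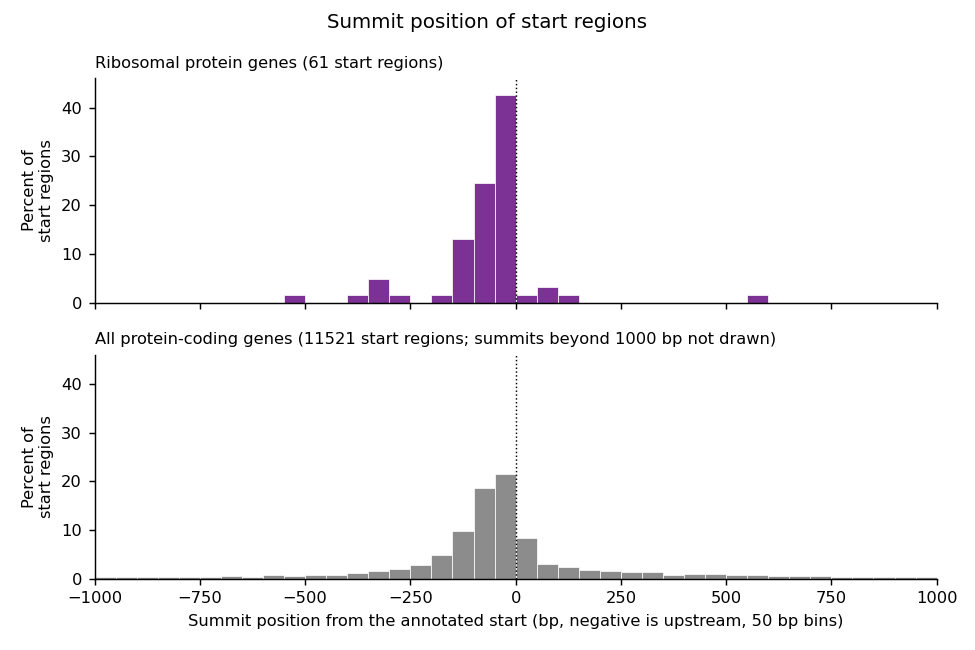
Position of the start region's summit from the annotated start (horizontal axis, bp, negative is upstream, in bins of 50 bp) as a percent of start regions (vertical axis), for ribosomal protein genes (above) and all protein-coding genes (below). The bin from 50 bp upstream to the start holds 42.6% of members and 21.5% of all genes.

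For 57 of the 61 members with a start region it was also the strongest region. The other 4 had a stronger region elsewhere: Rpl3l, Rpl23, Rpl4 and Rpl18. At Rpl3l it lay at the start of Msrb1, at Rpl4 at the start of Snapc5 and at Rpl18 at the start of Sphk2. The region at Rpl18 also overlapped the outer 5′ end of the Rpl18 gene model, at -2769.5 bp from its listed start. Another gene's listed start lay within 1000 bp of the strongest summit in 18 members, so such regions cannot be given to the ribosomal protein gene alone. Neither this count nor the 57 of 61 was set against the same share over all genes. Members also had fewer regions to choose from, a mean of 1.38 against 2.42 over all protein-coding genes. A protein-coding gene on the other strand started within 1000 bp upstream in 9 of 68 members (13.2%), against 8.48% of all genes and 34.8% of mitochondrial ribosomal protein genes. These pairs were Rpl18 with Sphk2, Rpl36al with Mgat2, Rps27 with Rab13, Rpl9 with Lias, Rps28 with Ndufa7, Rpl7a with Med22, Rpl12 with Lrsam1, Rps18 with Vps52 and Rpl35a with Iqcg.

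Regions also differed in width and number. Rpl7l1 had a wide region of 1167 bp and Rps20 one of 1136 bp, against a median of 636 bp over members. Rpl19 held 4 regions, of 6.57-fold and 8.15-fold and of 4.75-fold and 4.85-fold around its start, and of 4.18-fold and 4.94-fold and 3.18-fold and 3.21-fold more than 4 kb upstream of it, at the outer end of the gene model. Rpl4, Rps3, Rpl10a and Rpl36 held 3 regions each. In Rpl36 these were 10.8-fold and 9.90-fold, 8.44-fold and 8.80-fold, and 4.32-fold and 5.88-fold.

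Of the 10 paralogues, 7 had a start region. Start regions were present at Rpl22l1, Rpl39l, Rpl36al, Rps27l, Rpl10l, Rpl7l1 and Rpl3l and absent at Rpl37rt, Rpl32l and Rps27rt. Rpl39l, whose product replaces Rpl39 at the exit tunnel in mouse male germ cells, had 23.6-fold and 23.5-fold enrichment 31.5 bp upstream of its start, in a region on chromosome 16 (10169991 to 10170557). Its X-linked parent Rpl39 had 9.41-fold and 10.3-fold at 35 bp upstream. The gap between them exceeded the difference between libraries in both genes. The tags were closer, 115 and 85 at Rpl39l and 113 and 113 at Rpl39, so both genes had similar tags and Rpl39 the higher local background.

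Rpl10l, which stands in for X-linked Rpl10 during mouse male meiosis, had 17.4-fold and 14.5-fold, against 15.1-fold and 15.7-fold at Rpl10. Those ranges overlap. Rpl36al had 19.4-fold and 21.5-fold, against 19.4-fold and 23.5-fold at X-linked Rpl36a, also overlapping. Rpl22l1 had 24.5-fold and 26.4-fold, against 19.5-fold and 21.3-fold at Rpl22, without overlap between the libraries. Rps27l, a p53 target, had 17.4-fold and 21.0-fold, against 17.6-fold and 21.6-fold at Rps27. Each of these 5 paralogues was thus accessible at its start, and in 3 pairs the values overlapped those of the parent.

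Rpl3l is known for its use in heart and skeletal muscle in place of Rpl3. It had the strongest region of all members, at 30.7-fold and 34.6-fold from 405 and 536 tags, but this lay at the start of Msrb1 beyond its 3′ end. Near its own start the region had 4.66-fold and 2.96-fold, from 35 and 21 tags, with a summit 567.5 bp downstream. This was the lowest start region of the 61. Rpl7l1 had 16.8-fold and 17.3-fold at its start, against 11.5-fold and 14.3-fold in the strongest region of Rpl7, which has no listed start. Rpl37 had 22.7-fold and 22.6-fold, Rps27 the values above and Rpl32 8.55-fold and 10.9-fold, so that the parents of the 3 paralogues without a region all had one.

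**Figure D4:**
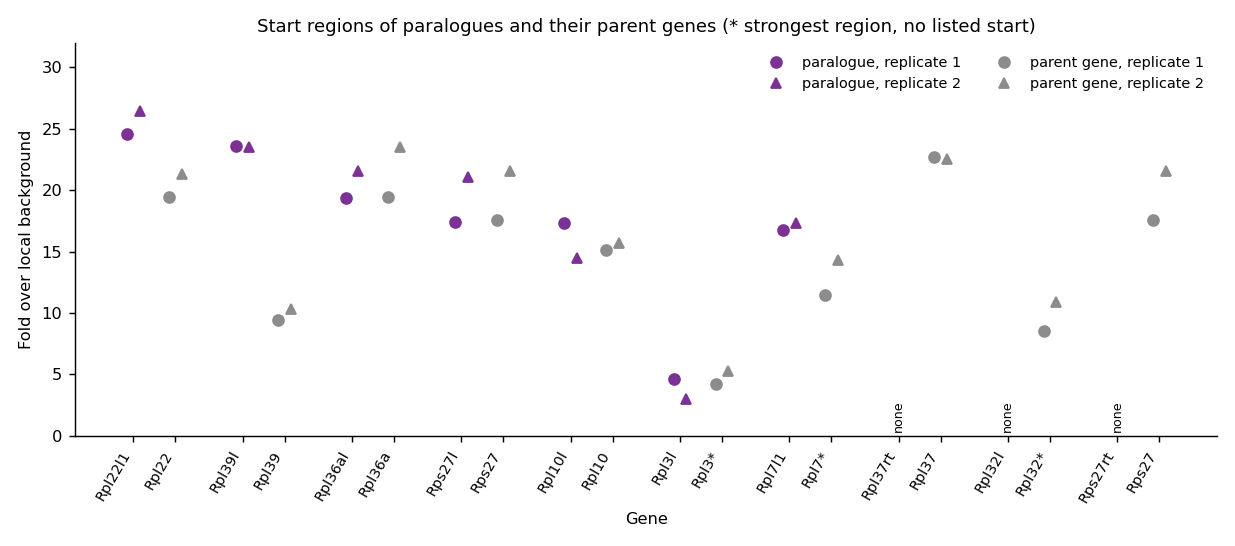
Fold over local background (vertical axis) at the start region of each of the 10 paralogues and, to its right, of its parent gene, with circles for replicate 1 and triangles for replicate 2. An asterisk marks a gene with no listed start, for which the strongest region is drawn, and none means no shared region. Rpl39l lies at 23.6 and 23.5 and Rpl39 at 9.41 and 10.3.

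The next promoters show how far a paralogue and its parent share sequence around the start. Windows are as above, and capitals mark the longest stretch common to the pair.
Rps27rt, chr9:114982720-114982799, minus strand: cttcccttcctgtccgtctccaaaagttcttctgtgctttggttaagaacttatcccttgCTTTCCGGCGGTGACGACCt
Rps27, chr3:90213629-90213708, minus strand: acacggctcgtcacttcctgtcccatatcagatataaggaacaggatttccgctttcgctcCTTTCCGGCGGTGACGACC
Rpl39l, chr16:10170168-10170247, plus strand: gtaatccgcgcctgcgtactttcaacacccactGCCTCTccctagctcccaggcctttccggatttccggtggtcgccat
Rpl39, chrX:37085203-37085282, minus strand: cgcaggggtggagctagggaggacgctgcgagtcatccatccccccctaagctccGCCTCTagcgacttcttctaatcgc
Rps27rt and Rps27 share 19 bases that begin at or next to the annotated start. The stretch runs to the end of the Rps27 window, so the window limits its length, and the bases beyond were not compared. A shared region was called at Rps27 and none at Rps27rt. In the window of Rpl39l and Rpl39 the longest common stretch is 6 bases, at unlike distances from their starts, and both genes were accessible. The longest stretch was 7 bases for Rpl10l and Rpl10, for Rpl36al and Rpl36a and for Rpl22l1 and Rpl22. Windows of unrelated genes were not compared, so stretches of 6 or 7 bases cannot be read as shared promoter sequence.

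The 4 X-linked members, Rpl36a, Rps4x, Rpl10 and Rpl39, all had a start region. Their median strongest fold was 17.0 and 16.5, against 16.8 and 17.8 for the members on autosomes. The values on X ranged from 9.41 to 19.4 and from 10.3 to 23.5, within the range of the autosomal members.

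Introns of ribosomal protein genes hold snoRNA genes, which guide chemical changes of ribosomal RNA. By RefSeq, 30 of 88 members (34.1%) contained at least 1 snoRNA gene, 59 in all, against 1.70% of all protein-coding genes. Rpl4 contained 5, and Rpl7a and Rpl13a 4 each. A shared region was found at 29 of 30 hosts and 54 of 58 other members. Median strongest fold was 16.4 and 17.3 at hosts and 17.1 and 17.7 at the others, with overlapping ranges, and no test was made of that difference.

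The RefSeq promoter windows, 250 bases before to 50 bases from the start, were searched for 8 fixed words on both strands and for a pyrimidine run at the start. One window per gene was used, 68 for members and 17492 for all genes. The pyrimidine run was defined as a C within 5 bases of the start followed by at least 4 bases of C or T on the gene's strand. It was found in 31 members (45.6%), against 18.7% of all genes and 23.2% of mitochondrial ribosomal protein genes. The word CCGGAAG, read by ETS factors, was in 25 members (36.8%), against 12.1% of all genes, with a close 36.2% in mitochondrial ribosomal protein genes. TCTCGCGA was in 10 members (14.7%), against 1.504% of all genes and 1.45% of mitochondrial ribosomal protein genes. Among genes with a start region only, these words were in 23 and 10 of 61 members, against 17.0% and 2.179% of all genes.

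The remaining words were searched in the same way. The GC box word GGGCGG was in 39 members (57.4%), against 47.4% of all genes. AAGATGGC, read by YY1, was in 5 members (7.35%), against 3.25% of all genes and 17.4% of mitochondrial ribosomal protein genes. TGACGTCA, the cAMP response element, was also in 5 (7.35%), against 2.35%. GCGCATGC, read by NRF1, was in 2 (2.94%), against 3.66%. CCAAT was in 22 (32.4%), against 39.3%, and TATAAA in 7 (10.3%), against 13.1%. Among genes with a start region only, the order turned for GGGCGG, in 36 of 61 members (59.0%) against 66.2% of all genes, and for TATAAA, in 6 of 61 (9.84%) against 6.71%. AAGATGGC and TGACGTCA were still more frequent in members there, at 6.56% against 4.18% and 8.20% against 3.22%. CCAAT and GCGCATGC were still less frequent, at 29.5% against 39.4% and 3.28% against 5.22%. The pyrimidine run was in 25 of 61 (41.0%), against 20.1%. Matches of different words may overlap each other in a window, and a match is a description of the letters, not of binding. Median GC content was 57% in members and 56.7% in all genes, with 21 CG dinucleotides in the median member window and 14 in the median window of all genes. Among genes with a start region only, median GC content was 57% in members and 61.3% in all genes. The median number of CG dinucleotides was 21 in both.

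**Figure D5:**
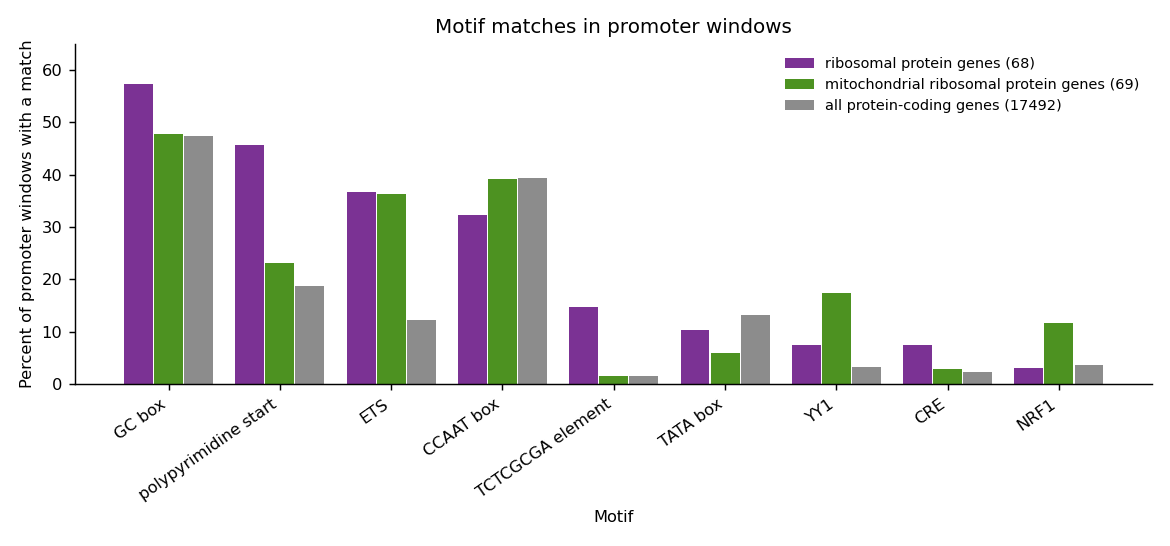
Percent of promoter windows with at least 1 match (vertical axis) for each of 9 motifs (horizontal axis), in ribosomal protein genes, mitochondrial ribosomal protein genes and all protein-coding genes. Members stand above all genes for the polypyrimidine start (45.6% against 18.7%), the ETS word (36.8% against 12.1%) and the TCTCGCGA element (14.7% against 1.504%).

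The 5 members whose window holds both CCGGAAG and TCTCGCGA, on either strand, are shown with all matches in capitals. Each stretch runs from 10 bases before the first match to 10 after the last, or less where it would pass 20 bases from the start.
Rpl26, chr11:68901530-68901585, plus strand: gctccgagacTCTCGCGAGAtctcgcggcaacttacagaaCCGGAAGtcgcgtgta
Rpl27a, chr7:109519016-109519191, plus strand: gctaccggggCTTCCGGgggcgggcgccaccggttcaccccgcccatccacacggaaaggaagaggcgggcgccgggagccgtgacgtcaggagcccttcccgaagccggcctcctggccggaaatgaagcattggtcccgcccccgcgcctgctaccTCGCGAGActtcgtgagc
Rpl35, chr2:39005242-39005330, minus strand: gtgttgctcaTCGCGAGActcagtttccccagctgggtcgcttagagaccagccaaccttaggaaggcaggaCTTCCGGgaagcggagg
Rps3a1, chr3:86142661-86142704, minus strand: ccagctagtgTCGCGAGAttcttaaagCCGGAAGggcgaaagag
Rps6, chr4:86857399-86857468, minus strand: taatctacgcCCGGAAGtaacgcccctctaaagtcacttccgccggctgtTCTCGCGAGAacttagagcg
In Rpl26 and Rps6 the TCTCGCGA matches of both strands overlap in 1 palindrome. The start regions of Rps3a1, at 16.4-fold and 23.1-fold, and Rps6, at 20.6-fold and 23.7-fold, were above the member median in replicate 2. Those of Rpl26, at 10.5-fold and 14.0-fold, and Rpl35, at 11.6-fold and 11.8-fold, were below it in both libraries. Rpl27a had 17.6-fold and 16.3-fold. Across members, CCGGAAG matches had a median position 56 bp upstream of the start and TCTCGCGA matches 22.5 bp upstream. Of these, 14 of 30 and 13 of 16 matches lay within 100 bp upstream. A TCTCGCGA palindrome was counted once on each strand, as at Rpl12, Rpl26, Rps19, Rps28 and Rps6. The 16 matches, in 10 members, are therefore fewer separate sites, and palindromes weigh more in their count and median. The nearest match lay a median of 64 bp and 61.25 bp from the accessible summit.

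The fold at the start region was set beside matches for each motif. Start regions of members with CCGGAAG had a median of 16.7 and 17.7, against 16.8 and 17.8 for members without it. With TCTCGCGA the medians were 12.99 and 14.5, against 17.4 and 19.8 without. With the pyrimidine run they were 14.6 and 16.3, against 17.4 and 19.3 without. Members with CCAAT had 17.5 and 20.9, against 16.6 and 17.7 without, and the 2 with GCGCATGC had 18.3 and 19.3, against 16.7 and 17.7. The order differed between libraries for GGGCGG (17.1 and 17.3 with, 16.6 and 17.8 without), TGACGTCA (17.6 and 16.3 with, 16.7 and 17.8 without) and TATAAA (16.5 and 20.02 with, 16.8 and 17.8 without). With AAGATGGC the medians were 13.4 and 15.2, against 16.8 and 17.8 without. These are descriptions over genes that share libraries, with no test. Rps21 and Rpl15 each hold 2 matches of CCGGAAG and the pyrimidine run, and had no shared region at the start.

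The libraries gave nearly the same order of members. Over 61 start regions log2 fold correlated between replicates with Pearson's r of 0.94 and Spearman's rho of 0.94, and log2 tags with 0.95 and 0.96. These points share both libraries and their depth, and the values are a description across genes. Fold was higher in replicate 2 at 52 of 61 member starts (85.2%), against 68.0% of all start regions and 50.9% of all shared regions. The share was 86.2% of 65 start regions of mitochondrial ribosomal protein genes, so it was not particular to members. It was 100% of 8 start regions of translation factor and other oligopyrimidine genes, and 69.2% of 13 of ribosome biogenesis genes. The mean log2 ratio of replicate 2 over replicate 1 was 0.16 ± 0.20 (SD over 61 regions), against 0.07 ± 0.26 over all start regions. The largest differences were at Rpl6, Rps3a1 and Rplp0, at 6.82, 6.67 and 6.13 units of fold. Rps3a1 had 138 and 213 tags. Differences of such size between members therefore lie within what 2 libraries of the same group showed.

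Other parts of the translation system are given beside the members. Of 78 mitochondrial ribosomal protein genes, which form the separate ribosome of mitochondria, 75 had a shared region (96.2%) and 65 of 69 with a listed start had one there (94.2%). Their start regions had medians of 18.05 and 20.9. All 16 ribosome biogenesis genes had a region, such as Polr1b, a subunit of RNA polymerase I, at 29.9-fold and 33.4-fold, and Ncl, which encodes nucleolin, at 15.6-fold and 16.4-fold. So did all 13 translation factor and other oligopyrimidine genes, among them Eef1a1 at 11.9-fold and 15.5-fold, Eef2 at 12.6-fold and 14.2-fold and Tpt1 at 19.9-fold and 21.0-fold. The members had medians of 16.8 and 17.7 at their strongest regions, against 13.7 and 18.3 for this list. Of ribosomal genes that the naming rule misses, Rack1 had 10.5-fold and 13.9-fold, and Fau had no peak in either library.

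Replicate 1 had 107331 peaks and replicate 2 had 98986, which gave 83732 shared regions. Tags at a summit were recovered from fold and p-value and ranged from 9 to 849 and from 9 to 907, with medians of 40 and 41, while read depth itself is unknown. All 12 spermatogonial markers had a shared region, as did 6 of 7 Sertoli, 1 of 4 Leydig, 4 of 5 fibroblast and feeder, and 5 of 5 endothelial and blood markers, against 75.7% of all genes. A start region was found at 9 of 9 spermatogonial markers with a listed start, 2 of 3 Sertoli, 1 of 3 Leydig, 0 of 2 fibroblast and feeder, and 1 of 3 endothelial and blood markers, against 65.9% of all genes. In the same order, 6, 0, 1, 0 and 1 of these markers had a start region above the median fold of both libraries, against 52.9% of all genes. The lowest spermatogonial start region was that of Nanos2, at 4.08-fold and 2.79-fold. So markers of other cell types also had shared regions. The part of such cells in the members' values was not tested, and since a housekeeping promoter is open in most cells, bulk values cannot say which cells gave the tags.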

How the data were processed

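ATAC-seq peak lists, 1 for each of 2 Stag3 KO GSC libraries, were used as the authors deposited them. Per the submitters' processing notes, tools included MACS2 2.1.1, Bowtie2 2.3.4.1, deepTools 3.5.0, bedtools 2.29.2, Picard 2.18.23 and Trim Galore, and the builds mm10 and GRCm38.p3. Settings, including any Tn5 shift, duplicate removal or treatment of reads with several matches, are not given in the sources used here. Each deposited peak had a fold enrichment (a ratio over local background), a −log10 p-value and −log10 q-value, and a deposited score, which was not used. Fold is the authors' value and served to describe and rank peaks within a list.

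Tags were solved from 2 equations, fold as (tags + 1)/(background + 1) and p-value as a Poisson tail, which gave 1 whole number for 100% of peaks of replicate 1 and for all but 2 peaks of replicate 2 (relative tolerance 1e-05 plus 0.0001 on the −log10 scale). The solver was checked on simulated peaks. A shared region is a replicate 1 peak joined with the overlapping replicate 2 peak of nearest summit, a pairing chosen after seeing the data. Where a gene had several regions, the strongest had the highest mean percentile of fold. Starts and strands came from RefSeq promoter sequences (GRCm38.p6); 20 members have none listed, and no exon annotation was used. Intervals are 95% Wilson intervals for counting error. With 1 group there was no test and no paired design.

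The genes named are the 8 members of highest and the 5 of lowest percentile, those with no shared region or with a peak in 1 library only, the 3 with the largest library difference, the 3 widest, the 3 with most regions (with ties) and the paralogues with their parents; others were named after their values were seen, and some genes that the rule names are not reported here. The members and lists were chosen with earlier results of these data known. Python with numpy 2.4.6, pandas 2.3.3 and scipy 1.17.1 was used.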

Additional observations from a re-analysis of the deposited data

How the results depend on the processing

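The count of members with a shared region stayed between 72 and 84 of 88 under the settings below. The count with a start region stayed between 54 and 62 of 68. The settings were windows of 500 and 2500 bp, peaks with −log10 q of at least 5 and the 50000 peaks of highest fold per library. Others were an overlap of 50% of each peak, both peaks in the window, folds above the library median and either library alone. Without paralogues the counts were 76 of 78 and 54 of 58. Among the stricter settings, a share over all genes was computed only for start regions above the library medians (52.9%, against 82.4% of members). The other counts therefore do not show whether the excess of members over all genes held. Pairing each peak with the partner that overlaps it most, added after seeing the data, gave 83 and 61, as reported. With the 50000 strongest peaks, the median strongest fold was 17.6 in replicate 1 and 19.9 in replicate 2, against 16.8 and 17.7 as reported, and the median summit of the strongest region moved to -52.5 bp from the start, against -47 bp. Fewer weak regions enter that setting by its construction. Leaving out 1 library gave summit medians from -53 to -48 bp. A library that is left out has no fold, and fold and position were not computed for the settings that need both peaks in the window or folds above the median. No paired analysis was possible because there is 1 group. The limits are the lack of wild-type libraries, of read depth and of replication beyond 2 libraries, so a difference in fold between members smaller than about the library difference cannot be read.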
